A study of Mus musculus with 6 samples.

Results

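The genes described here encode core proteins of the spliceosome, SR proteins and hnRNP proteins. They were taken by symbol from the platform annotation: names that begin with Sf3a or Sf3b and a digit (9 genes), with Snrp (11), with Srsf and a digit (10) or with Hnrnp (18), without pseudogenes, 48 of 19505 measured genes. The cells were B16F10, a mouse melanoma line grown in RPMI1640 and kept for 48 h in medium alone (control), in medium with 2.5 µM of the compound that the labels name di-sq or SQ-diEG, or in medium with 40 µM of it. Each group held 2 single-colour Affymetrix arrays, and values are log2 expression from robust multi-array averaging (RMA). No label states that the arrays of a group stand for separate cultures, so the p-values below reflect the spread between these arrays, which may be technical. Groups follow the sample titles and treatment labels; the free-text description of one 2.5 µM array speaks of medium, and those of the 3 other treated arrays name another treatment.

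Splicing removes introns from pre-mRNA. The U1 particle marks the upstream end of an intron, the U2 particle then binds at the branch site, and the U4, U5 and U6 particles join to form the active spliceosome. Sf3a and Sf3b proteins are parts of the U2 particle that hold it at the branch site, while Snrp genes encode the Sm proteins, which form a ring on the particles' RNA, and a few proteins of U1 or U2 alone. SR proteins bind exons and recruit the machinery, and hnRNP proteins coat pre-mRNA and often keep splice sites from being used. Many SR and hnRNP proteins also control the splicing of their own transcripts, through exons whose inclusion leads to decay of the message.

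The labelled cell type was checked on its markers. All 7 melanoma markers (Tyr, Tyrp1, Dct, Mlana, Pmel, Mitf and Sox10) lay well above the negative control features, with means of 12.76 to 19.01. The measured markers of other cells, 5 of fibroblasts and 4 each of keratinocytes, leukocytes and endothelium, had means of 3.17 to 5.66, below the negative controls' 95th percentile (9.94 as the average of the arrays). A pair of arrays stood apart from the rest, 2.5 µM replicate 1 and 40 µM replicate 1. Their hybridisation controls averaged 10.43 and 10.30, and those of the other 4 arrays 10.82 to 11.15. Their poly-A controls, which are added to the RNA before labelling, averaged 5.65 and 5.63, against 6.35 to 7.42. These 2 arrays are called the low arrays below. The highest averages of both kinds were those of 40 µM replicate 2, at 11.15 and 7.42. The control arrays had 10.86 and 10.90 for hybridisation, and 6.35 and 6.39 for poly-A. So the 1 array left at 40 µM without the low arrays lay at the other end of the range. Where both arrays of a dose are given, replicate 1 stands first. In bulk RNA a lower share of cells with a transcript and less of it per cell cannot be told apart.

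Of the 48 genes, 38 had a mean above 9.94, as did 21.3% of all genes. Every one of the Sf3 genes did, with 7 of 11 Snrp, 6 of 10 Srsf and 16 of 18 Hnrnp genes. The mean is over all 6 arrays, treated ones included. Sf3b5 passed only through its treated arrays, since its controls of 9.73 and 9.86 lay below 9.94. The means of the 10 others, Snrpb2, Snrpc, Snrpd1, Snrpf, Srsf6, Srsf9, Srsf11, Srsf12, Hnrnph3 and Hnrnpll, lay below it, within the range of the negative controls. Srsf12, with a mean of 2.95, and Hnrnph3 lay below even the median of the negative controls (6.05), so their differences are between background values.

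The 2 control arrays were close to each other for these genes, and the treated arrays were not. The median absolute difference between the 2 arrays of a group was 0.092 in control, 0.28 at 2.5 µM and 0.39 at 40 µM over the 48 genes, and 0.12, 0.27 and 0.37 over all genes. The widest gap was that of Sf3b6, a small U2 protein that contacts the branch site adenosine. It had 11.94 and 12.19 in control, 13.08 and 11.63 at 2.5 µM, and 14.29 and 12.01 at 40 µM. Only the low array of each dose was high, and the other treated array overlapped control (40 µM) or lay below it (2.5 µM).

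**Figure D1:**
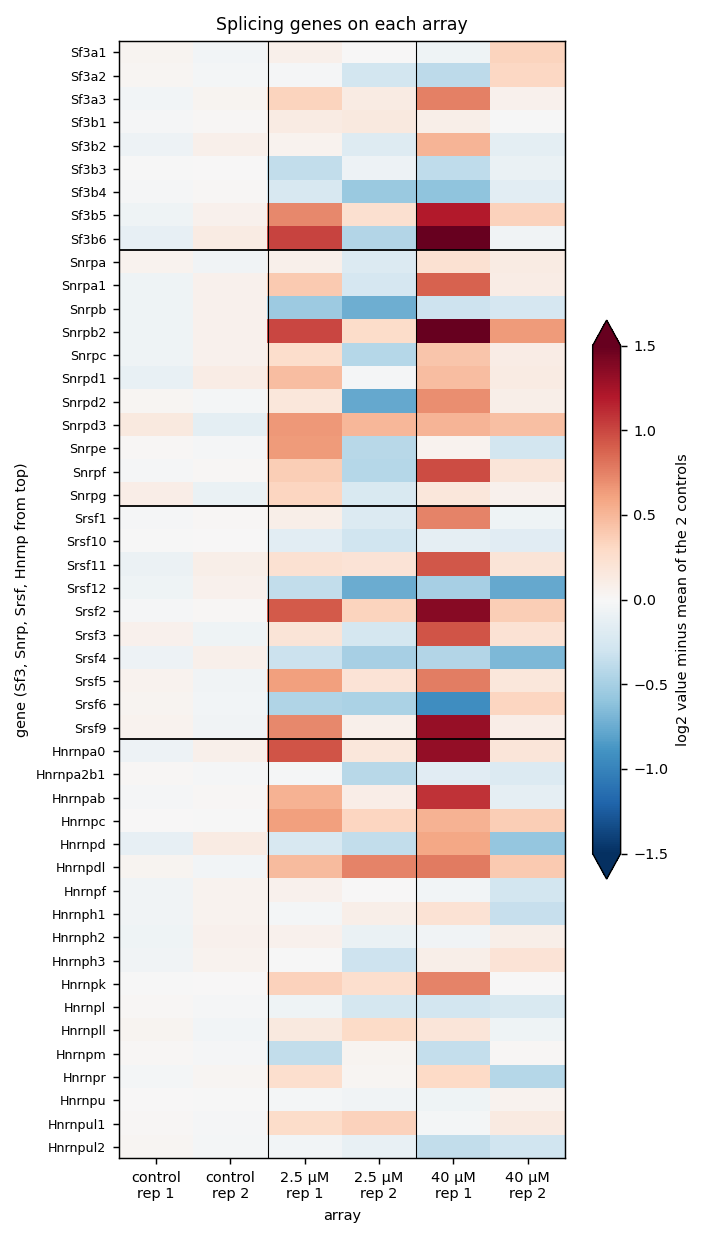
Each row is a gene and each column an array; colour gives the log2 value minus the mean of the 2 control arrays, from blue (lower) to red (higher), with values beyond 1.5 in the end colour. The red of Sf3b6, Snrpb2, Srsf2, Srsf9 and Hnrnpa0 is deepest on replicate 1 at 40 µM and next on replicate 1 at 2.5 µM.

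The median difference of the 48 genes from the control mean was 0.15 on replicate 1 and -0.089 on replicate 2 at 2.5 µM. At 40 µM it was 0.27 on replicate 1 and 0.067 on replicate 2. The Snrp and Srsf families stood farthest from control on single arrays. The Snrp genes had a median of 0.37 and -0.25 on the arrays at 2.5 µM and 0.47 and 0.11 on those at 40 µM. For the Srsf genes these were 0.14 and -0.23 at 2.5 µM, and 0.76 and 0.13 at 40 µM. The Sf3 medians (0.074 and -0.079, then 0.090 and -0.0074) and the Hnrnp medians (0.065 and 0.036, then 0.13 and -0.028) stayed nearer to control. All 11 Snrp and all 10 Srsf genes were higher on replicate 1 than on replicate 2 at 2.5 µM, though Srsf6 and Srsf11 by only 0.02. So were 7 of 9 Sf3 and 13 of 18 Hnrnp genes, 49.5% of all genes and 56.1% of genes above the negative controls. At 40 µM replicate 1 was the higher array for 10 of 11 Snrp, 9 of 10 Srsf, 5 of 9 Sf3 and 11 of 18 Hnrnp genes. It was the higher for 48.3% of all genes and 56.5% of genes above the negative controls. Both low arrays lay above all 4 others for 22 of the 48 genes (45.8%), among them 9 of 11 Snrp genes, against 16.2% of all genes and 28.8% of genes above the negative controls. The reverse held for Sf3b3 and Hnrnpm alone (4.17%, against 14.8% of all genes). With the low and other arrays as a block in the fit, the median of the 48 genes was 0.05 at 40 µM, against 0.14 without the block, and -0.08 at 2.5 µM, against 0.03. The Snrp median at 40 µM was 0.08 with the block and 0.29 without it, and the Srsf median was 0.14 with it and 0.40 without it.

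**Figure D2:**
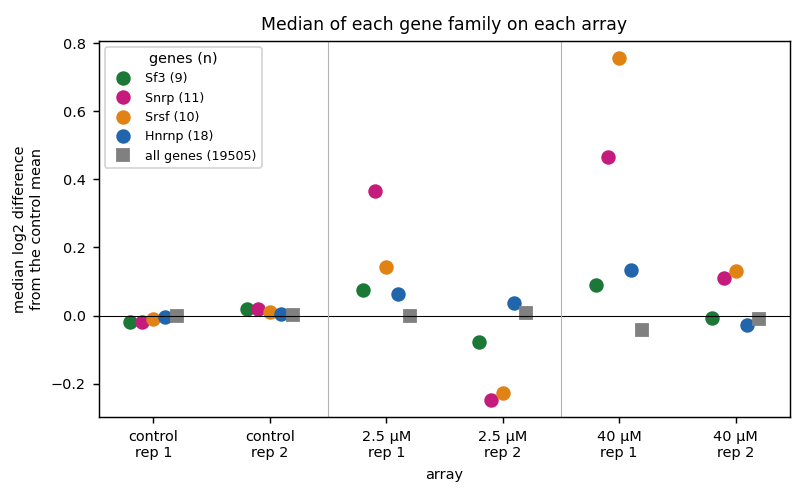
Points are the median, over the genes of a family, of the log2 difference from the control mean on each of the 6 arrays; grey squares are all 19505 genes. The Snrp and Srsf points lie above 0 on replicate 1 and below 0 on replicate 2 at 2.5 µM, and at 40 µM they lie above 0 on both, higher on replicate 1.

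At the higher dose, 40 µM against control, no member passed the test after adjustment over all genes, and 0% of all genes did (limma, Benjamini-Hochberg, smallest adjusted p of a member 0.361). At an unadjusted p under 0.05, 6 of 48 genes were higher (12.5%, against 5.18% of all genes) and 2 lower (4.17%, against 6.86%). Both arrays at 40 µM lay above both controls for 20 genes (41.7%, against 22.2% of all genes) and below them for 9 (18.8%, against 26.3%). Among genes above the negative controls these shares were 26.2% and 23%, and for the 38 members above them 34.2% and 21.1%. Sf3b5, above them only through its treated arrays, counts in the 34.2%. The median log2 difference was 0.14 with 30 of 48 genes higher, and -0.012 over all genes. For genes above the negative controls it was 0.052 with 55.9% higher, and for the 38 members above them 0.086 with 57.9% higher. Without the low arrays the median of the 48 genes was 0.067, and with quantile normalization it was 0.05 with 25 genes higher and 23 lower.

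Among the U2 and U1 proteins, Snrpb2 (the B'' protein of U2, which binds a hairpin of U2 RNA) had the smallest p. Its values were 9.91 and 9.04 at 40 µM and 8.33 and 8.47 in control, all near or below the negative controls' 95th percentile. Both treated arrays were higher, and the groups did not overlap. The log2 difference was 1.07 with a standard error of 0.35 (limma, unadjusted p = 0.0189, adjusted p = 0.361), 0.68 with the array block and 0.64 without the low arrays. Its partner Snrpa1 (the A' protein of U2) had 11.68 and 10.91 at 40 µM, against 10.73 and 10.87 in control, so that replicate 2 was barely above control (0.50, standard error 0.32). Snrpa, which binds a hairpin of U1 RNA, had 11.53 and 11.42, against 11.35 and 11.25, a difference of 0.17 within a 95% interval of -0.28 to 0.63. Snrpc, which helps U1 to hold the start of the intron, had 6.89 and 6.58 at 40 µM and 6.41 and 6.53 in control, near background on every array.

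The Sm genes lay on both sides of control. Snrpd3 had 10.68 and 10.62 at 40 µM, against 10.32 and 10.02 in control, without overlap (0.47, standard error 0.20, limma unadjusted p = 0.0493). Snrpb, which encodes SmB, lay on the other side. It had 11.57 and 11.63 at 40 µM and 11.81 and 11.95 in control, a difference of -0.28 with an interval of -0.71 to 0.15. Snrpd2 had 13.12 and 12.51, against 12.45 and 12.40, so that replicate 2 was above the control mean by 0.09. Snrpf had 8.35 and 7.55, against 7.35 and 7.39 in control (0.58, interval -0.27 to 1.43). Snrpe had 11.42 and 11.09, against 11.39 and 11.35, and Snrpg 10.48 and 10.37, against 10.41 and 10.21. Both overlapped control. Snrpd1 had 9.02 and 8.68, against 8.45 and 8.67, just clear of control on replicate 2. In all, 8 of the 11 Snrp genes (72.7%) had both arrays above both controls, against 22.2% of all genes. Among genes above the negative controls this share was 26.2%. Only 1, Snrpb, had both below (9.09%, against 26.3% of all genes and 23% of genes above the negative controls). Of the 8, Snrpb2, Snrpc, Snrpd1 and Snrpf had means within the range of the negative controls.

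Among the Sf3 genes, Sf3b5, a small subunit of the Sf3b complex, had 10.99 and 10.14 at 40 µM and 9.73 and 9.86 in control. Both arrays were higher, the low array by more (0.77, standard error 0.32, limma unadjusted p = 0.0457). Sf3a3 had 11.45 and 10.77, against 10.66 and 10.74 in control, where replicate 2 was above control by 0.07. Sf3b4, which contacts pre-mRNA beside the branch site, was lower on both arrays, at 11.45 and 11.89, against 12.03 and 12.07 (-0.38, interval -0.90 to 0.15). Sf3b3, a scaffold of the complex, was lower too, at 13.84 and 14.12, against 14.22 and 14.23. Sf3b1, its central subunit and the target of several splicing inhibitors, had 12.81 and 12.72, against 12.71 and 12.74 (0.04, interval -0.35 to 0.43). Sf3a1 had 14.43 and 14.83 at 40 µM and 14.54 and 14.45 in control, so the arrays lay on opposite sides. Sf3b6, described above, had a difference of 1.09 with a standard error of 0.74.

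The SR genes lay on both sides of control. Srsf2 (SC35), an activator of exon inclusion, had 12.59 and 11.60 at 40 µM and 11.21 and 11.24 in control, without overlap. The log2 difference was 0.87 with a standard error of 0.35 (limma, unadjusted p = 0.0424, adjusted p = 0.408), 0.47 with the array block and 0.37 without the low arrays. Srsf3, the smallest of the classical SR proteins, had 12.66 and 11.94, against 11.79 and 11.65 (0.58, interval -0.09 to 1.26). Srsf5 had 14.20 and 13.60, against 13.49 and 13.38 (0.47, interval -0.13 to 1.06). Both genes lay higher on both arrays, again by most on replicate 1. Srsf1 (ASF/SF2), the best studied SR protein, was high on replicate 1 only, at 14.40 and 13.59, against 13.64 and 13.68 in control (0.34, interval -0.32 to 0.99). Srsf9 had 10.87 and 9.66, against 9.61 and 9.51 in control (0.70), and stood only 0.10 above the control mean on replicate 2. Srsf11 had 10.44 and 9.70, against 9.42 and 9.60 (0.56), and stood 0.19 above it there.

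A few SR genes were lower. Srsf4 (SRp75) had 10.55 and 10.32 at 40 µM and 10.91 and 11.07 in control, without overlap, and here the low array was the nearer to control. Its difference was -0.55 with a standard error of 0.20 (limma, unadjusted p = 0.0262, adjusted p = 0.373), and -0.67 without the low arrays. Srsf12 had 2.84 and 2.57, against 3.28 and 3.40, all at background. Srsf10, which can repress splicing when dephosphorylated, lay at 11.92 and 11.89, against 12.05 and 12.06. Srsf6 (SRp55) split, with 9.04 and 10.29 at 40 µM, against 10.01 and 9.93 in control.

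Of the hnRNP genes, Hnrnpdl and Hnrnpc had the smallest p. Hnrnpdl, a relative of the mRNA decay factor Hnrnpd, had 11.38 and 10.99 at 40 µM and 10.64 and 10.56 in control (0.59, standard error 0.22, limma unadjusted p = 0.0295). Hnrnpc, which binds uridine tracts, had 13.56 and 13.40, against 13.04 and 13.03 (0.45, standard error 0.18, limma unadjusted p = 0.0439). Neither overlapped control. Hnrnpk, which binds cytosine-rich RNA, had 18.49 and 17.76, against 17.74 and 17.76. Its difference of 0.38 lay almost wholly on replicate 1, and replicate 2 was above the control mean by 0.01. Hnrnpa0 had 12.07 and 10.93, against 10.67 and 10.83 in control, and was above it on both arrays. Hnrnpab had 17.20 and 15.98, against 16.10 and 16.14, so its arrays lay on opposite sides of control.

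Hnrnpul2 lay lower on both arrays at 40 µM, at 12.59 and 12.66, against 12.98 and 12.93 in control (-0.33, interval -0.72 to 0.07). Hnrnpl, a binder of CA repeats, had 14.50 and 14.55, against 14.80 and 14.76 (-0.25). Hnrnpa2b1 had 16.47 and 16.43, against 16.66 and 16.62 (-0.19), so both lay lower on both arrays. Hnrnpf, which binds runs of guanine, had 17.05 and 16.82, against 17.04 and 17.14. Hnrnpu, a nuclear scaffold protein, stood at 16.44 and 16.56, against 16.52 and 16.50 (-0.01, interval -0.36 to 0.33). The median of the 18 genes was 0.0049, with 9 higher and 9 lower, but with quantile normalization it was -0.10, with 6 higher and 12 lower.

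**Figure D3:**
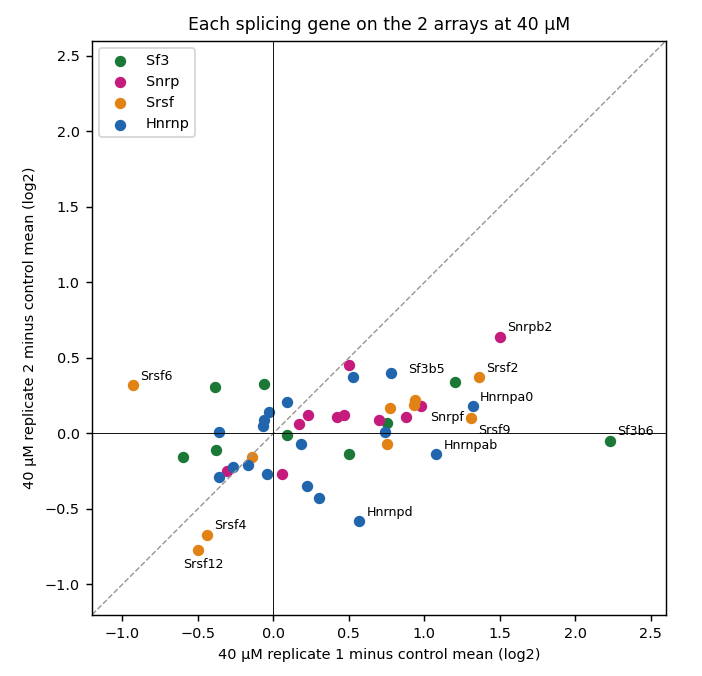
Each point is a gene, with its log2 difference from the control mean on 40 µM replicate 1 (x) and replicate 2 (y); the dashed line marks equal differences. Most points lie below the line, as Sf3b6 does at 2.23 and -0.05, whereas Srsf4 and Srsf12 are low on both arrays.

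Without the low arrays 16 of the 48 genes passed at 40 µM (limma), 7 higher and 9 lower, with 3749 of all 19505 genes, but 1 array was left at 40 µM and it is assumed to vary like the 2 controls, the sole source of the error. Without 40 µM replicate 2, 14 passed, 13 higher and 1 lower, with 2235 of all genes. There the low array alone stood for 40 µM and was assumed to vary like the other groups. Hnrnpd, a factor of mRNA decay, Hnrnph1 and Hnrnpr, which were among the 9, had negative differences on replicate 2 (-0.58, -0.35 and -0.43) and positive ones on replicate 1 (0.57, 0.22 and 0.30).

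At the lower dose, 2.5 µM against control, none of the 48 genes passed, and 0% of all genes did (limma, smallest adjusted p of a member 0.479). At an unadjusted p under 0.05, 3 were higher (6.25%, against 4.24% of all genes) and 2 lower (4.17%, against 5.38%). Both arrays lay above both controls for 17 genes (35.4%, against 27.1%) and below for 12 (25%, against 25.9%). Among genes above the negative controls these shares were 34% and 23.7%. The median of the 48 genes was 0.032, against 0.010 over all genes and 0.059 for genes above the negative controls. Without the low arrays, on the 1 array left at this dose, the median of the 48 genes was -0.089.

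Snrpb had the smallest p of the 48 at this dose. It had 11.34 and 11.15 at 2.5 µM and 11.81 and 11.95 in control, a difference of -0.64 with a standard error of 0.18 (limma, unadjusted p = 0.00996, adjusted p = 0.479). Both arrays were lower, and replicate 2, the 1 array left without the low array, differed from the control mean by -0.73. Snrpd3 had 10.82 and 10.67, against 10.32 and 10.02 (0.57, standard error 0.20). Snrpb2 had 9.40 and 8.68, against 8.33 and 8.47 (0.64, interval -0.20 to 1.47). So the 2 Sm genes lay on opposite sides of control at either dose, while Snrpd2 and Snrpe split between the arrays. Snrpd2 had 12.59 and 11.66 at 2.5 µM, against 12.45 and 12.40 in control. Snrpe had 12.01 and 10.95, against 11.39 and 11.35.

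Hnrnpdl had 11.07 and 11.35 at 2.5 µM and 10.64 and 10.56 in control (0.62, standard error 0.22, limma unadjusted p = 0.0246). Here the low array was the lower of the pair, whereas it was the higher for 41 of the 48 genes and 49.5% of all genes. Hnrnpc had 13.65 and 13.36, against 13.04 and 13.03 (0.47, standard error 0.18), and Hnrnpul1 had 15.27 and 15.34, against 15.01 and 14.97 (0.32, interval -0.06 to 0.69). All 3 were above control on both arrays. Hnrnpk had 18.09 and 18.00, against 17.74 and 17.76 (0.29, interval -0.26 to 0.85). Hnrnpf, with 17.16 and 17.10, against 17.04 and 17.14, overlapped control.

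Among SR genes at 2.5 µM, Srsf2 had 12.15 and 11.56, against 11.21 and 11.24 (0.63, interval -0.20 to 1.46), and Srsf4 10.67 and 10.49, against 10.91 and 11.07 (-0.41, interval -0.87 to 0.06). Srsf5 had 14.05 and 13.64, against 13.49 and 13.38 in control. Those 3 did not overlap control, while Srsf1 (13.75 and 13.46, against 13.64 and 13.68) and Srsf3 (11.91 and 11.46, against 11.79 and 11.65) did. Srsf12 was again below its controls, at background. Of the Sf3 genes, Sf3b4 had 11.81 and 11.49, against 12.03 and 12.07 (-0.40, interval -0.92 to 0.12), Sf3b5 10.52 and 10.04, against 9.73 and 9.86 (0.48, interval -0.27 to 1.23), and Sf3b3 13.86 and 14.15, against 14.22 and 14.23 (-0.22). Sf3b1 differed by 0.14 with an interval of -0.26 to 0.53. Snrpa and Sf3a1 differed by -0.06 and 0.04.

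At both doses, both arrays lay above both controls for the same 12 genes: Sf3a3, Sf3b5, Snrpb2, Snrpd3, Srsf2, Srsf5, Srsf9, Srsf11, Hnrnpa0, Hnrnpc, Hnrnpdl and Hnrnpk. They lay below both controls at both doses for 9: Sf3b3, Sf3b4, Snrpb, Srsf4, Srsf10, Srsf12, Hnrnpa2b1, Hnrnpl and Hnrnpul2. Of the 12, Hnrnpk and Sf3a3 stood only 0.01 and 0.07 above the control mean on 40 µM replicate 2. No gene was above control on both arrays at one dose and below on both at the other. The 2 comparisons share the control arrays, so these counts are not independent of each other. Of all genes, 22.2% lay above both controls on both arrays at 40 µM, and 26.3% below. At 2.5 µM these shares were 27.1% and 25.9%. The share of all genes that meets the rule at both doses together is not given here. Whether the 12 and 9 genes exceed that share was therefore not tested.

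**Figure D4:**
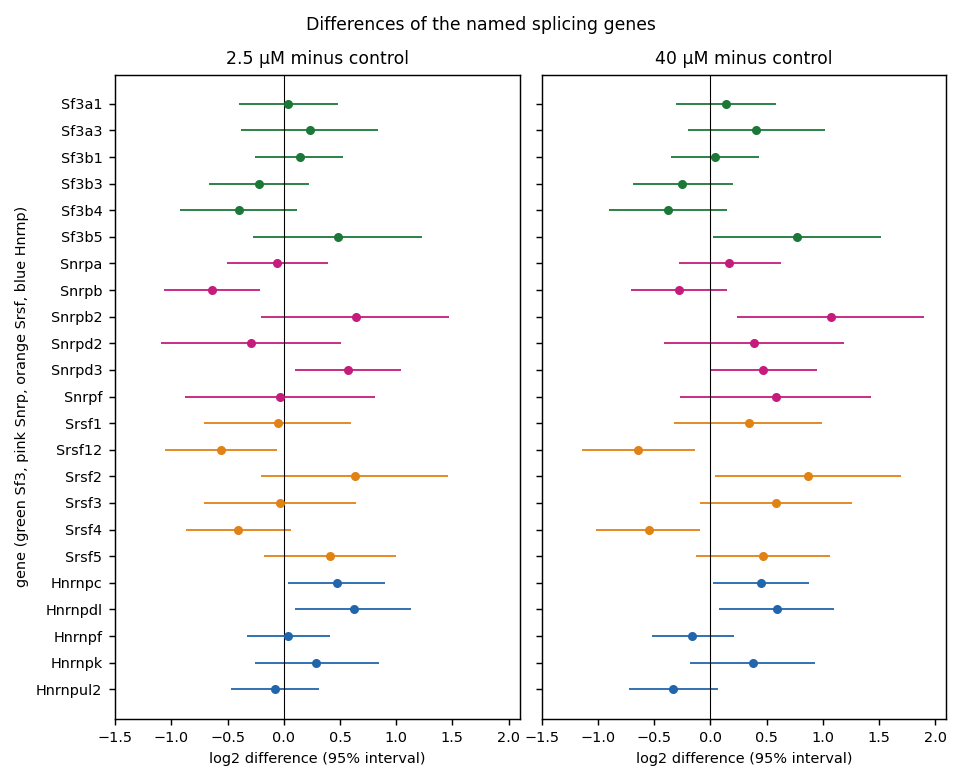
Points are log2 differences from control with 95% intervals from limma for 23 genes, at 2.5 µM (left) and 40 µM (right); colours give the family. Snrpb at 2.5 µM and Snrpb2 at 40 µM lie on opposite sides of 0, and no point passed after adjustment over all genes.

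Set against 2.5 µM, the 40 µM arrays gave no call either, with 0% of all genes called (limma, smallest adjusted p of a member 0.854), and none had an unadjusted p under 0.05 in either direction, against 2.34% of all genes higher and 3.28% lower. Both arrays at 40 µM lay above both at 2.5 µM for 4 genes (8.33%, against 12.4%) and below for 4 (8.33%, against 16.3%). The 4 higher ones were Srsf3, Snrpb, Snrpa and Hnrnph3, and the 4 lower ones Sf3b1, Hnrnpf, Hnrnpul1 and Hnrnpul2. Srsf3 had 12.66 and 11.94 at 40 µM and 11.91 and 11.46 at 2.5 µM (0.62, interval -0.06 to 1.29). Snrpb had 11.57 and 11.63 at 40 µM and 11.34 and 11.15 at 2.5 µM (0.36, interval -0.07 to 0.79), so it stood nearer to control at the higher dose. Hnrnpul1 differed by -0.26 with an interval of -0.63 to 0.11, and Hnrnpul2 by -0.25 with -0.64 to 0.15. Without the low arrays, on 1 array a dose, 13 of the 48 genes passed (8 higher, 5 lower), with 2965 of all genes.

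Matching the low arrays with each other, the median difference of 40 µM from 2.5 µM over the 48 genes was 0.075, with 29 higher (60.4%). Between the replicate 2 arrays it was 0.048, also with 29 higher. Over all genes these medians were -0.001 and -0.016, with 49.9% and 48.5% higher. Of genes above the negative controls 54.2% and 45.5% were higher. The Snrp genes had 0.16 between the low arrays and 0.36 between the others, where 10 of 11 were higher at 40 µM (90.9%, against 48.5% of all genes). Snrpd2, for example, had 13.12 and 12.51 at 40 µM and 12.59 and 11.66 at 2.5 µM (0.69, interval -0.11 to 1.49), higher at 40 µM within each pair. Snrpf had 8.35 and 7.55 at 40 µM, against 7.74 and 6.94 (0.61, interval -0.24 to 1.46). The Hnrnp genes had 0.03 and -0.19 in the same pairings, and the Srsf genes 0.30 and 0.029. Srsf11 (10.44 and 9.70 at 40 µM, against 9.74 and 9.72) and Srsf1 (14.40 and 13.59, against 13.75 and 13.46) differed by 0.34 and 0.39, mostly between the low arrays. Of the Sf3 genes, Sf3b6, Sf3b2 and Sf3b5 had the smallest p, with differences of 0.80, 0.25 and 0.29 and intervals that all held 0.

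The rest of the splicing machinery was read from a list of 125 measured factors outside the 4 families. At 40 µM 9 of them had an unadjusted p under 0.05 and were higher (7.2%, against 5.18% of all genes) and 2 lower (1.6%, against 6.86%). At 2.5 µM 5 were higher and 5 lower (4% each, against 4.24% and 5.38%). None passed after adjustment (limma). Their median was 0.098 at 40 µM and 0.080 at 2.5 µM, and without replicate 1 at 40 µM it was -0.047. At 40 µM and 2.5 µM the medians were -0.012 and 0.010 over all genes. Those of genes above the negative controls were 0.052 and 0.059. Syf2, which joins the spliceosome with the Prp19 complex, had the smallest p at 40 µM, with a log2 difference of 1.22 and a standard error of 0.25 (limma, unadjusted p = 0.00166, adjusted p = 0.334). It had 9.82 and 9.69 at 40 µM and 8.45 and 8.62 in control, without overlap and with a mean below the negative controls' 95th percentile. Celf1, which binds GU-rich RNA, differed by -0.73 at 40 µM and by -0.63 at 2.5 µM, with 11.58 and 11.93 at 40 µM, against 12.44 and 12.53 in control. Dhx16, the helicase that readies the spliceosome for the first step, had 9.63 and 9.66 at 40 µM, against 8.70 and 8.80 in control (0.90), also below that percentile. Lsm8, of the ring on U6 RNA, had 12.00 and 11.91 at 2.5 µM, against 11.09 and 10.97 (0.93). Casc3, of the exon junction complex, had 11.84 and 12.02 at 2.5 µM, against 12.47 and 12.55 (-0.58). Neither overlapped control. Between the doses, Dhx38, a helicase of the second step, had 9.19 and 8.85 at 40 µM, against 9.63 and 9.90 at 2.5 µM (-0.75). Lsm8 had 11.60 and 11.06 at 40 µM, against 12.00 and 11.91 at 2.5 µM (-0.63). Smu1, which takes part in activation of the spliceosome, had 9.53 and 8.84, against 8.75 and 8.17 (0.72). Dhx38 and Smu1 also had means below that percentile.

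By group of that list, values are given as a description. The 14 measured factors of the Prp19 complex, which remodels the spliceosome for catalysis, had a median of 0.42 at 40 µM and 0.30 at 2.5 µM. Of them 11 were higher at 40 µM (78.6%, against 48.7% of all genes) and 12 at 2.5 µM (85.7%, against 51.2%). By array their medians were 0.44 and 0.20 at 2.5 µM and 0.66 and 0.11 at 40 µM, above 0 on all 4. The 8 LSm genes followed the low arrays, with 0.52 and -0.23 at 2.5 µM and 0.71 and -0.12 at 40 µM. The 16 proteins of the U5 and U4/U6 particles had 0.15 and 0.028 at 2.5 µM and 0.37 and -0.020 at 40 µM. The medians of the 15 SR-related proteins and kinases lay between 0.012 and 0.084 on the treated arrays. Single genes of this group ranged from -0.97 to 1.07 on 40 µM replicate 1. The 22 other regulators had a median of -0.14 at 40 µM, with 14 lower and 11 of them with both arrays below both controls (50%, against 26.3% of all genes). At 2.5 µM their median was 0.062, with 13 higher, 9 lower and 5 with both arrays below both controls (22.7%, against 25.9%).

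Promoters are shown for genes from the lists above, 3 whose arrays lay above control at both doses (Snrpb2, Sf3a3 and Srsf2) and 1 below it (Srsf4). Windows run from 250 bases before to 50 after the annotated start (RefSeq, GRCm38.p6), and 42 of the 48 genes had 1 or more. Capitals mark the ETS core CCGGAAG, the CCAAT box CCAAT, the TATA box TATAAA and the GC box GGGCGG on either strand, and marks may touch or overlap. Snrpb2 lies at chr2:143062819-143063118 (+), Sf3a3 at chr4:124714611-124714910 (+), Srsf2 at chr11:116853045-116853344 (-) and Srsf4 at chr4:131873387-131873686 (+), the outermost of its 3 windows.
Snrpb2: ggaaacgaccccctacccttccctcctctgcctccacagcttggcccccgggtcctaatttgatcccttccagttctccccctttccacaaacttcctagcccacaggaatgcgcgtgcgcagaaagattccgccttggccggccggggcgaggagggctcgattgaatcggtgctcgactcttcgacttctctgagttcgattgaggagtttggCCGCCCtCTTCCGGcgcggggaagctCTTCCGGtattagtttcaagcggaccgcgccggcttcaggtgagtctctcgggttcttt
Sf3a3: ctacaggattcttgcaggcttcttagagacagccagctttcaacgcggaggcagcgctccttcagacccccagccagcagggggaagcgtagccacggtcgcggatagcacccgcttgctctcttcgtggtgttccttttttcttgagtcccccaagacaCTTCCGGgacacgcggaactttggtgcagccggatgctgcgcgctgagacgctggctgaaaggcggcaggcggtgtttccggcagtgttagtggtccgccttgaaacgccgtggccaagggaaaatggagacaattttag
Srsf2: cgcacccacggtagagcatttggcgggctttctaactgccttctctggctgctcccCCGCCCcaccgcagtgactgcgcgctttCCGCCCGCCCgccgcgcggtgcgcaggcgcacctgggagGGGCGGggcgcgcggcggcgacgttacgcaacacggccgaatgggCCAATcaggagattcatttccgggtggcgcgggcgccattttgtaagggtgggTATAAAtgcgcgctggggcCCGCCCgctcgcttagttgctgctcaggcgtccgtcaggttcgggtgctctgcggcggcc
Srsf4: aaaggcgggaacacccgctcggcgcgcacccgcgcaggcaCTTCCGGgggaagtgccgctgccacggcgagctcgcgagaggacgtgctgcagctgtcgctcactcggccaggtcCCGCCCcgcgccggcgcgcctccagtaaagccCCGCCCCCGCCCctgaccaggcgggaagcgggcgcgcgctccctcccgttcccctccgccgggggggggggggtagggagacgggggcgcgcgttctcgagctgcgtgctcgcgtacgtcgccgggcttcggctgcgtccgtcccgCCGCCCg

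The window of Snrpb2 holds 2 ETS cores and 1 GC box, that of Sf3a3 holds 1 ETS core, that of Srsf2 holds 5 GC boxes, a CCAAT box and a TATA box, and that of Srsf4 holds 1 ETS core and 4 GC boxes. Over the families, an ETS core was in 7 of 8 Sf3 windows (87.5%), 4 of 10 Snrp (40%), 5 of 13 Srsf (38.5%) and 4 of 25 Hnrnp windows (16%), against 20.2% of the windows of all genes above the negative controls and 8.86% of all windows. A GC box was in 40 of 56 windows of the genes described (71.4%), against 66.2% and 35.7%, a CCAAT box in 25 (44.6%), against 38.5% and 37.4%, and a TATA box in 6 (10.7%), against 7.29% and 13.6%. Windows of 1 gene can overlap and share letters. A match is a description of the letters and not a bound site.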

How the data were processed

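Total RNA of B16F10 cells was measured on 6 single-colour Affymetrix arrays, 2 per group. The deposited values are log2 expression, made by the authors with RMA; the submitters' processing notes also name the Transcriptome Analysis Console and the Affymetrix Expression Console, without versions. Values reach 19.9, and the sources used here do not give the scaling step behind that. Of 22206 transcript clusters, 19572 carried 1 symbol in the platform annotation, 2634 none and 0 several; a gene with several clusters (55 genes) was read from the one with the highest mean, and no member had several. A linear model over all 6 arrays, without covariates, was fitted to 19505 genes (limma 3.58.1, R 4.3.3, eBayes with trend, two-sided, Benjamini-Hochberg over all genes, threshold 0.05), and tested on simulated data.

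The members and lists were chosen with earlier results of these data known. Genes named are, per comparison and family, the 3 with the smallest p, the 2 with the highest mean in each family, and Sf3b1, Snrpa, Snrpb, Srsf1, Srsf2, Srsf3 and Hnrnpk; outside the families, the 3 with the smallest p. Other names were chosen after their values were seen. Hnrnpa1 was not analysed here. Alternatives were other normalizations, filters, variance settings and blocks, and leaving out arrays; the filter on genes above the negative controls was chosen after seeing the data.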

Additional observations from a re-analysis of the deposited data

How the results depend on the processing

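None of the 48 genes passed in any comparison with quantile normalization, median centring, other filters, no trend, array weights, the array split as a block or fits of 2 groups only, and with the replicate block the count was 0 as well. That block moved no call among the members. In the labels, same-numbered arrays share only a number. In the values, the replicate differences of the 2 doses went together (correlation 0.386), and those with control did not (-0.0121 and -0.00452). The replicate 1 arrays of both doses are also the low arrays. In the fits without both low arrays many genes outside the families passed too, in every comparison. The counts of members given next are therefore not particular to splicing genes. Whether they exceed the share of all genes was not tested. Without both low arrays 16 genes passed at 40 µM against control, 18 at 2.5 µM against control and 13 at 40 µM against 2.5 µM, where 1 array stands for each dose and the error comes from the 2 controls alone. Leaving out 1 array at a time gave 0 to 14 calls at 40 µM against control, the 14 without 40 µM replicate 2, and a median difference of 40 µM from 2.5 µM between -0.09 and 0.25. With quantile normalization the median of the 48 genes was 0.05 at 40 µM and -0.03 at 2.5 µM (21 higher, 27 lower), both against control. Some differences changed sign, small ones and also that of Sf3b6 at 40 µM against 2.5 µM (0.80 with all 6 arrays). The cause was not tested. With quantile normalization the signs of Sf3b1 at 40 µM (-0.04) and Sf3a1 at 2.5 µM (-0.02) changed, both against control. With the array split as a block, Hnrnpf at 2.5 µM was -0.03. Without both low arrays, Srsf1 was -0.07 and Sf3b1 -0.0074 at 40 µM against control, and Srsf11 -0.02, Srsf5 -0.04 and Hnrnpk -0.24 at 40 µM against 2.5 µM. With 1 array left out, the log2 difference of 40 µM against control ranged as follows: Srsf1 -0.07 to 0.75, Sf3b1 -0.0074 to 0.09 and Sf3a1 -0.06 to 0.33. For 2.5 µM against control the ranges were Snrpd2 -0.76 to 0.17, Srsf1 -0.20 to 0.09, Snrpa -0.20 to 0.08, Srsf3 -0.26 to 0.19, Hnrnpf -0.0066 to 0.09 and Sf3a1 -0.0071 to 0.09. For 40 µM against 2.5 µM the ranges were Sf3b6 -0.34 to 1.94, Sf3b2 -0.07 to 0.57, Sf3b5 -0.14 to 0.72, Srsf1 -0.02 to 0.80, Srsf11 -0.03 to 0.71, Sf3b3 -0.17 to 0.13, Srsf5 -0.24 to 0.36, Hnrnpk -0.28 to 0.45, Srsf2 -0.26 to 0.74 and Sf3a1 -0.10 to 0.29. The number of arrays limits the precision, and 10 of the 48 genes lay within the range of the negative controls.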
